A study of Mus musculus with 6 samples.

Results

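The genes described here encode 10 secreted growth factors: Pdgfa, Pdgfb, Vegfa, Vegfb, Pgf, Igf1, Hbegf, Tgfb1, Csf1 and Hgf. They were taken by gene symbol from tables of 24062 genes, and all 10 were present and passed the filter on low counts. The tables come from polyA RNA-seq of C57BL/6J mouse bone marrow cells grown with GM-CSF at 20 ng/ml and fed on days 3, 6 and 10. Of the 6 samples, 3 were grown at low tension (2 kPa) and 3 at high tension (50 kPa), and nothing else in the labels separates the groups. All samples thus received GM-CSF, a growth factor supplied by the experimenter, and the labels name no sort that would remove cells other than dendritic cells. The comparison asks how the stiffness of the surroundings altered transcription in such a culture. Whether the replicates are separate animals or cultures is not in the labels, and the p-values therefore reflect sample-to-sample spread that may be technical.

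Growth factors of these families act on neighbouring cells through receptors on the cell surface, most of them receptor tyrosine kinases. Macrophages and related cells are known sources of PDGF, VEGF, IGF-1 and TGF-beta in wound repair and fibrosis, where the factors act on fibroblasts, smooth muscle and vessels. CSF-1 acts back on the macrophage lineage itself through its receptor, the product of Csf1r. TGF-beta1 is secreted in a latent form, bound to its own propeptide and often to a carrier protein, and must be freed before it signals.

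Libraries held 33.8 M to 36.3 M counts. Levels are normalised counts per M of the scaled library (CPM), where 1 count is 0.024 to 0.0311 CPM, so counting error was small for all 10 genes. Log2 fold changes are 50 kPa over 2 kPa with their standard errors, and a gene was called at an adjusted p under 0.05 by edgeR's quasi-likelihood test over all 13155 genes tested. Itgax, which encodes the dendritic cell integrin CD11c, had 801 ± 439 CPM on the soft and 2399 ± 857 CPM on the stiff substrate (SD, n = 3), and Lyz2, lysozyme of the myeloid lineage, had 9776 ± 3072 and 16441 ± 1147 CPM. Flt3 and Zbtb46, markers of classical dendritic cells, stood at 7.33 ± 2.71 and 10.8 ± 1.68 CPM at 2 kPa and 2.78 ± 1.05 and 8.40 ± 1.67 CPM at 50 kPa. High tension replicates 1 and 2 were far more alike than the rest: their counts gave a chi-square of 6.71 for each degree of freedom, against 122 to 418 between the other libraries, still above the value near 1 of sampling noise.

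At 50 kPa Pdgfb was the one growth factor gene that rose by edgeR's test, 2.26-fold. Of the other 9 genes, 5 (Csf1, Pdgfa, Hbegf, Pgf and Vegfa) had all 3 libraries at 50 kPa above all 3 at 2 kPa without passing the test. Igf1, Vegfb and Tgfb1 had overlapping groups, and Hgf was the one gene with all 3 libraries at 50 kPa below those at 2 kPa. Of the 10 genes, 1 was called higher, beside 1.47% of all tested genes, and 0 were called lower, beside 1.98% (3.45% in either direction). At an unadjusted p under 0.05 edgeR gave 6 higher and 0 lower, beside 13% and 14.8% of all genes (27.8% in either direction). DESeq2 called 6 of the 10 higher and 0 lower, beside 8.52% and 9.51% of all genes, and edgeR with replicate number as a block called 2 higher and 0 lower, beside 1.93% and 3.97%. Groups did not overlap in 6 genes that were higher at 50 kPa and in 1 that was lower, properties of 17.2% and 16.9% of tested genes (34.1% in all). The median log2 fold change of the 10 was 0.99, against -0.028 over all genes tested. The 10 genes were chosen with earlier results of these data known, so this median and these shares are descriptions and test nothing about the list. Together the 10 genes took 0.126%, 0.0995% and 0.109% of all counts in replicates 1 to 3 at 2 kPa and 0.179%, 0.178% and 0.152% at 50 kPa.

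**Figure D1:**
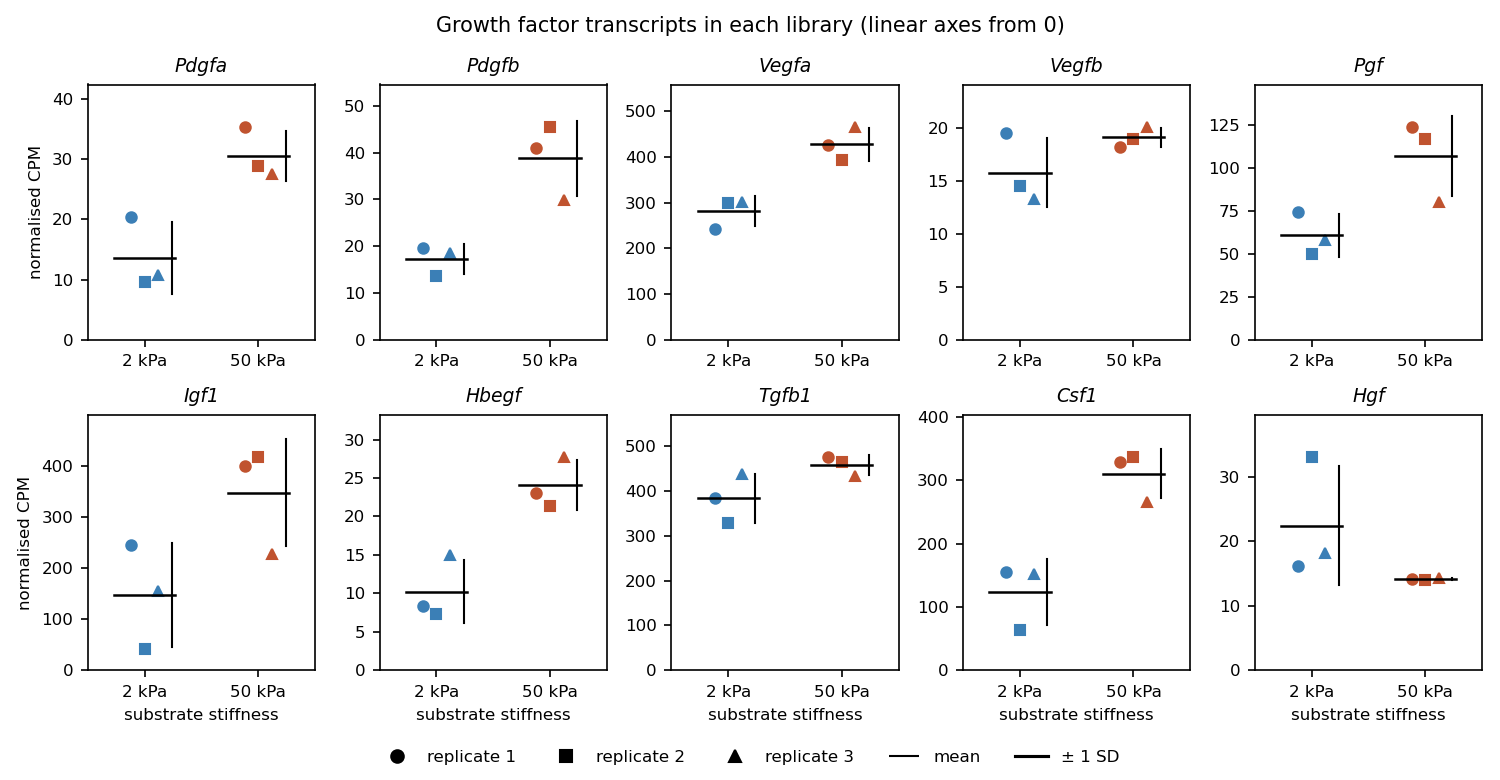
Normalised CPM of the 10 growth factor genes by substrate stiffness, 1 point per library with the replicate as the marker, the group mean as a horizontal line and ± 1 SD as a vertical line (n = 3 per group, linear axes from 0). For Pdgfa, Pdgfb, Vegfa, Pgf, Hbegf and Csf1 every point at 50 kPa lies above every point at 2 kPa, and for Hgf every point lies below.

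Pdgfb encodes the PDGF-B chain, whose dimers recruit and expand mesenchymal cells such as pericytes and fibroblasts. On GRCm38 the gene spans 79995874 to 80014977 of chromosome 15 on the minus strand, and coordinates of the other genes are of the same build. Its levels were 19.5, 13.6 and 18.5 CPM in replicates 1 to 3 at 2 kPa and 41.0, 45.5 and 29.9 CPM at 50 kPa. Every library on the stiff substrate thus held more Pdgfb than any on the soft one, with the lowest of them in replicate 3. The log2 fold change was 1.17 ± 0.21 (edgeR adjusted p = 0.0444). The gene was called in 7 of the 15 other fits tried, with adjusted p-values from 6.91e-05 to 0.203, and its unadjusted p stayed under 0.05 in all 15. The call ended without low tension replicate 1, 2 or 3 (adjusted p = 0.0521, 0.107 and 0.0684), without high tension replicate 1 or 2 (0.203 and 0.195) and with high tension replicates 1 and 2 summed into 1 sample (0.19), by edgeR. It also ended with replicate number as a block (edgeR adjusted p = 0.054).

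Pdgfa encodes the PDGF-A chain, which can pair with PDGF-B and acts on PDGF receptor alpha (chromosome 5, 138976014 to 138997370, minus strand). Its libraries held 20.4, 9.52 and 10.8 CPM at 2 kPa and 35.4, 28.9 and 27.6 CPM at 50 kPa. The groups did not overlap, and low tension replicate 1 lay closest to the stiff samples. The log2 fold change was 1.17 ± 0.30, much like that of Pdgfb, but with a wider spread the edgeR adjusted p was 0.0813. It passed the test without low tension replicate 1, at 1.60 (edgeR adjusted p = 0.0442), with replicate number as a block (1.25, edgeR adjusted p = 0.0425) and with DESeq2 (adjusted p = 0.00484). Pdgfa shares 813 bases of exon sequence with 6330403L08Rik, a gene of the opposite strand that is not in the count tables, and no source used here states whether the counting used strand. The ratio of Pdgfb to Pdgfa counts within a library needs no scaling. On the log2 scale this ratio was 0.41 ± 0.43 at 2 kPa and 0.33 ± 0.29 at 50 kPa (SD, n = 3 per group; difference -0.08, 2-sided exact permutation p = 0.9, adjusted p = 0.9 over 6 ratios). The paralog Pdgfc, named after its values were seen, was spread widely within the groups, at 34.2, 6.24 and 9.70 CPM at 2 kPa and 38.3, 46.1 and 20.3 CPM at 50 kPa (1.06 ± 0.66, edgeR adjusted p = 0.332). Its log2 fold change was 2.14 without low tension replicate 1.

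Vegfa encodes the main growth factor of blood vessels and a chemoattractant of monocytes (chromosome 17, 46016993 to 46032369, minus strand). It stood at 243, 298 and 301 CPM at 2 kPa and 426, 393 and 465 CPM at 50 kPa. The 2 groups were separated by a wide gap relative to their spread, and the log2 fold change of 0.61 ± 0.14 was the smallest among the 6 genes with higher, non-overlapping groups (edgeR adjusted p = 0.065). DESeq2 gave an adjusted p of 0.00082, and the value lay between 0.47 and 0.68 in all 15 other fits. Pgf encodes placental growth factor, a VEGF relative that binds VEGF receptor 1 (chromosome 12, 85166635 to 85177790, minus strand). Its levels were 74.6, 49.8 and 58.4 CPM at 2 kPa and 124, 117 and 80.2 CPM at 50 kPa. The groups came close to touching, since high tension replicate 3 was near low tension replicate 1 (0.81 ± 0.22, edgeR adjusted p = 0.0852 and DESeq2 adjusted p = 0.0115). Vegfb encodes a VEGF relative linked to fatty acid uptake (chromosome 19, 6982473 to 6987651, minus strand). It was 19.5, 14.6 and 13.3 CPM at 2 kPa and 18.3, 19.0 and 20.1 CPM at 50 kPa, with overlapping groups (0.28 ± 0.16, edgeR adjusted p = 0.305). Low tension replicate 1 alone reached the level of the stiff samples, and without it the value was 0.46 (edgeR adjusted p = 0.0746). Within libraries the log2 ratio of Vegfa to Vegfb counts was 4.16 ± 0.46 at 2 kPa and 4.48 ± 0.10 at 50 kPa (SD, n = 3 per group; difference 0.32, 2-sided exact permutation p = 0.2, adjusted p = 0.3 over 6 ratios).

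Csf1 encodes macrophage colony-stimulating factor and had the largest log2 fold change of the 10 genes, although it was not called (chromosome 3, 107741048 to 107760469, minus strand). Its levels were 156, 64.0 and 152 CPM at 2 kPa and 329, 337 and 266 CPM at 50 kPa. All stiff samples lay above all soft ones, and low tension replicate 2 stood far below its group. The log2 fold change was 1.32 ± 0.34 (edgeR adjusted p = 0.0812; DESeq2 adjusted p = 0.00399) and was 1.01 without low tension replicate 2. Csf1 counts relative to Tgfb1 counts, a measure free of library scaling, had log2 ratios of -1.30, -2.36 and -1.53 at 2 kPa and -0.53, -0.47 and -0.70 at 50 kPa. The ratio did not overlap between groups, with a difference of 1.16 (n = 3 per group; exact permutation test, 2-sided, p = 0.1, below which 3 against 3 cannot go; adjusted p = 0.3 over 6 ratios).

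Igf1 encodes insulin-like growth factor 1, a trophic factor that repair macrophages make (chromosome 10, 87858265 to 87937042, plus strand). It varied most between libraries, at 244, 41.7 and 154 CPM at 2 kPa and 398, 416 and 226 CPM at 50 kPa. The groups overlapped, as low tension replicate 1 exceeded high tension replicate 3. The log2 fold change of 1.24 ± 0.61 was not called (edgeR adjusted p = 0.237; DESeq2 adjusted p = 0.12). Leaving out low tension replicate 2 gave 0.80, and leaving out low tension replicate 1 gave 1.83. Igf1 counts over Tgfb1 counts had log2 ratios of -0.65, -2.98 and -1.51 at 2 kPa and -0.26, -0.16 and -0.94 at 50 kPa, with overlapping groups (n = 3 per group; 2-sided exact permutation p = 0.2, adjusted p = 0.3 over 6 ratios).

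Hbegf encodes heparin-binding EGF-like growth factor, which is made as a membrane protein and shed by the protease ADAM17. It stood at 8.36, 7.32 and 14.9 CPM at 2 kPa and 23.1, 21.4 and 27.7 CPM at 50 kPa. The groups did not overlap, and low tension replicate 3 was the highest of its group (1.24 ± 0.29, edgeR adjusted p = 0.0675). It passed the test with replicate number as a block (1.30, edgeR adjusted p = 0.0387) and with DESeq2 (adjusted p = 0.00234). Adam17 itself was 204, 163 and 361 CPM at 2 kPa and 303, 305 and 261 CPM at 50 kPa, with overlapping groups (0.25 ± 0.30, edgeR adjusted p = 0.593).

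Tgfb1 encodes TGF-beta1, a regulator of matrix deposition and of immune tolerance (chromosome 7, 25687002 to 25705077, plus strand). It was 384, 328 and 439 CPM at 2 kPa and 475, 466 and 433 CPM at 50 kPa. The groups overlapped through the replicates numbered 3, and the log2 fold change was 0.26 ± 0.14 (edgeR adjusted p = 0.284). Hgf encodes hepatocyte growth factor, which acts on epithelial cells through the receptor MET (chromosome 5, 16553495 to 16620152, plus strand). Its levels were 16.2, 33.1 and 18.1 CPM at 2 kPa and 14.2, 14.03 and 14.3 CPM at 50 kPa. The stiff samples were nearly identical to each other, and the difference came largely from low tension replicate 2. The log2 fold change was -0.66 ± 0.28 (edgeR adjusted p = 0.18) and -0.28 without that library. In the annotation Hgf shares 484 bases of exon with Gm43489 on the same strand, which is not in the count tables.

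The promoters of Csf1, Vegfa, Tgfb1 and Hgf are shown as the 250 bases before a RefSeq start site on GRCm38.p6, because Csf1 had the largest log2 fold change, Vegfa a smaller one without overlap, Tgfb1 overlapping groups and Hgf the opposite direction. RefSeq promoter sequences were matched for 8 of the 10 genes, and Pdgfb and Hbegf have no entry. They are written 5′ to 3′ on the strand of the gene. Capitals mark matches, on either strand, to 8 motifs: the Sp1 GC box GGGCGG, AP-1 TGANTCA, PU.1 GAGGAAG, TEAD GGAATG, the hypoxia response core ACGTG, the E-box CACGTG, which contains that core, CRE TGACGTCA and the TATA box TATAAA.
Csf1, chr3:107760470-107760719, minus strand: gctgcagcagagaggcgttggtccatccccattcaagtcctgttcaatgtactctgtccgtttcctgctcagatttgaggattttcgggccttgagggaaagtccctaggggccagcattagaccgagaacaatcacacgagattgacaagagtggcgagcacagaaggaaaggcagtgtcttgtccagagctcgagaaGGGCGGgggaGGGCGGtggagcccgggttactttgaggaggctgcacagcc
Vegfa, chr17:46032378-46032627, minus strand: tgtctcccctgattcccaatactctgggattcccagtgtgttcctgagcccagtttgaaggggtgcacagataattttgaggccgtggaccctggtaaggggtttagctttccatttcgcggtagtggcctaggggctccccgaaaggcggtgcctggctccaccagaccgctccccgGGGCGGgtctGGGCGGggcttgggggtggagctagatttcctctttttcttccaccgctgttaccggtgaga
Tgfb1, chr7:25686752-25687001, plus strand: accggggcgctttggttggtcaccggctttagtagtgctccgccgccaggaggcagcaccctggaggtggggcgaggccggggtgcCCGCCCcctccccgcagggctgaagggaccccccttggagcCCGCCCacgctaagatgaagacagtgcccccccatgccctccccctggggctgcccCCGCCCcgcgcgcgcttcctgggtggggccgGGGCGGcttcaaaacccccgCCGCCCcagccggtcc
Hgf, chr5:16553245-16553494, plus strand: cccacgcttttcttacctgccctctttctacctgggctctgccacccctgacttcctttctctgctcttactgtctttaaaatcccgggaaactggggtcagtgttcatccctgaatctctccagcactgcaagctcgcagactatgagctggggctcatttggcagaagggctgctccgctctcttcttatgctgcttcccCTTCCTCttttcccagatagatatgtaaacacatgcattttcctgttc

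Csf1 and Vegfa each held 2 GC boxes within 72 bases of the start site, at 51 to 46 and 41 to 36 bases before it in Csf1 and at 72 to 67 and 62 to 57 in Vegfa. Tgfb1 held 5, the farthest at 164 to 159 and the nearest at 16 to 11 bases before the start. The GC box was found in 32.7% of 32851 promoter windows of the same length. The Hgf window held a PU.1 match alone, at 48 to 42 bases, which 10.6% of windows hold. The other 6 motifs, without a match in these 4 windows, were in 6.75% (AP-1), 12.6% (TEAD), 16.6% (hypoxia response core), 6.02% (E-box), 1.55% (CRE) and 12.4% (TATA box) of windows. G and C made up 56.4% of the Csf1 window, 59.2% of that of Vegfa, 75.2% of that of Tgfb1 and 50.8% of that of Hgf. Vegfa and Hgf each have a second RefSeq start site, and the matches differ with the start taken. Both second windows lie inside the annotated gene rather than before it. That of Vegfa, chr17:46025164-46025413, is within a gene that starts at 46032369 on the minus strand. It held 1 GC box and a hypoxia response core at 211 to 207 bases before the second start. The second Hgf window, chr5:16553651-16553900, held no match. These are matches of letters only.

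Among the 6 libraries, low tension replicate 2 held the lowest level of 7 of the 10 genes and the highest level of Hgf. Marker lists of cell types were also summed, and whether they follow these levels was not tested. Beside the counts given for each list, edgeR called 1.47% of all tested genes higher and 1.98% lower. At an unadjusted p under 0.05 by edgeR, 13% of all tested genes were higher and 14.8% lower. The 14 macrophage markers in the tables summed to 8861 to 16000 CPM at 2 kPa and 21090 to 23450 CPM at 50 kPa. Of them 0 were called by edgeR and 7 had an unadjusted p under 0.05, all higher, with low tension replicate 2 as the lowest library. Lyz2 dominated this sum, at 9776 ± 3072 and 16441 ± 1147 CPM (edgeR unadjusted p = 0.0579). The markers Emr1 (0.10), Mrc1 (0.72), Mertk (-0.06), Cd14 (-0.59) and Fcgr1 (-0.71) had overlapping groups (log2 fold changes in brackets). The median of the list was 0.87, with 11 positive and 3 negative. The 12 neutrophil markers summed to 3836 to 7613 CPM at 2 kPa and 888 to 1696 CPM at 50 kPa, and 6 fell. The 8 B and plasma cell markers summed to 867 to 1393 and 24.8 to 105 CPM, and 7 fell. Megakaryocyte and platelet markers, of which 4 of 9 fell, summed to 231 to 391 and 81.4 to 248 CPM. The 8 basophil and mast cell markers summed to 326 to 789 and 158 to 216 CPM, with 0 called and 7 lower at an unadjusted p under 0.05. Low tension replicate 2 had the largest sum of each of these 4 lists. Of the 10 stromal markers 8 had a negative log2 fold change (median -1.59), with 5 lower at an unadjusted p under 0.05 (Col1a1, Col3a1, Dcn, Lum and Cxcl12) and 0 called lower. The collagen gene Col3a1 was 2.20 ± 2.11 CPM on the soft and 0.218 ± 0.103 CPM on the stiff substrate. Their sum of 66.0 to 108 and 124 to 130 CPM went the other way through Lepr alone, which rose (57.1 ± 13.5 and 115 ± 4.01 CPM, 1.01 ± 0.18, edgeR adjusted p = 0.0452). The 12 dendritic cell markers were split. Their sum was 6348 to 12640 and 15250 to 23260 CPM, which Itgax and the antigen presentation genes Cd74, H2-Aa and H2-Ab1 dominate. These 4 were higher at an unadjusted p under 0.05, while Ccr7, Cd86, Dpp4, Cd83, Flt3 and Batf3 were lower, with 0 called and a median log2 fold change of -0.41. The 7 endothelial markers, 4 of them tested and 0 called, summed to 274 to 547 and 397 to 487 CPM. Of all markers in the tables, only the endothelial gene Cldn5 had 0 counts in every library. Csf1r is also a macrophage marker here, Pdgfra and Pdgfrb are stromal ones and Kdr is an endothelial one. The part of cell composition in the growth factor levels was not tested. In such bulk samples fewer cells of a type and less RNA per cell cannot be told apart.

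**Figure D2:**
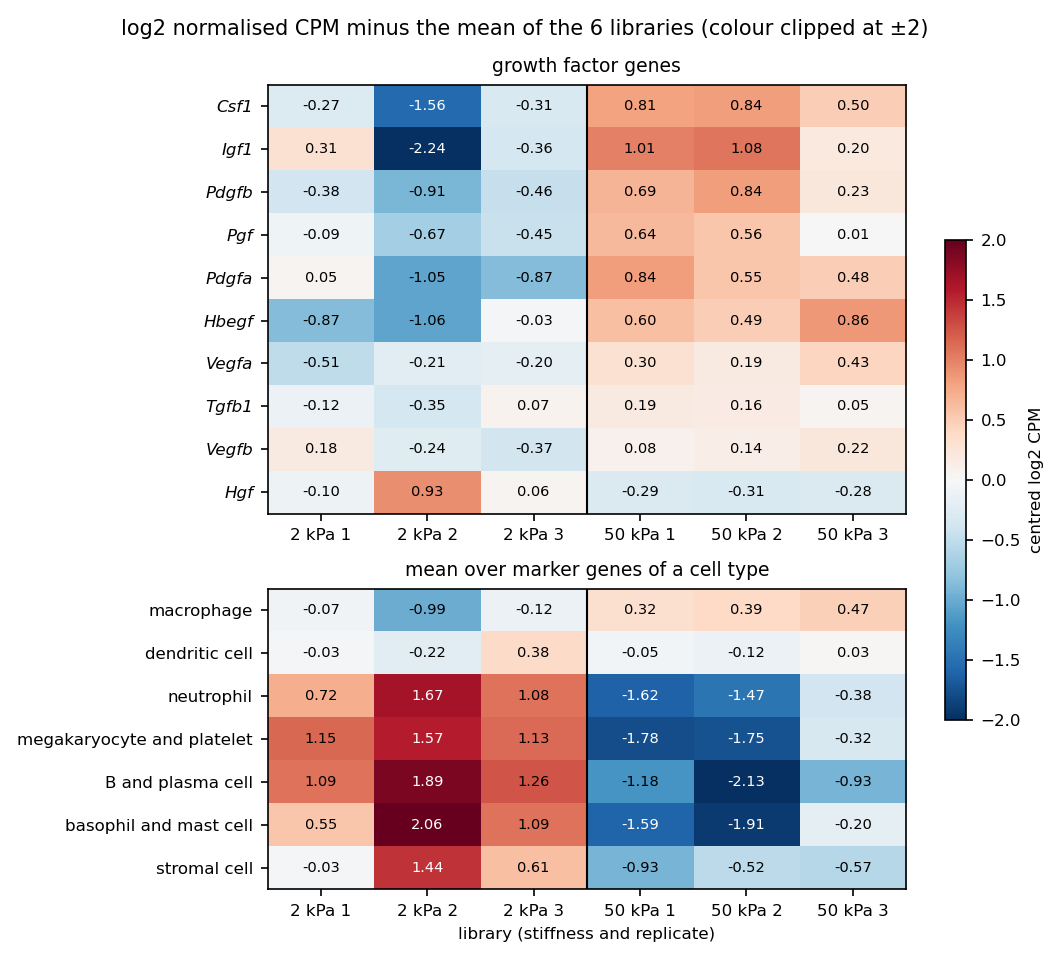
Log2 normalised CPM of each growth factor gene (upper panel) and the mean over tested marker genes of each cell type (lower panel, with a prior count of 2), each minus its mean over the 6 libraries, in log2 units by colour and number. Low tension replicate 2 has the lowest value of Csf1 (-1.56), Igf1 (-2.24) and the macrophage markers (-0.99) and the highest of Hgf (0.93) and the neutrophil markers (1.67).

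Leaving out single libraries moved the sizes of these differences but turned none of their directions: in all 15 other fits 9 of the 10 genes had a positive log2 fold change and Hgf a negative one. For genes whose groups did not overlap, leaving out 1 library could not turn the direction at fixed scaling. Only Igf1, Vegfb and Tgfb1 had overlapping groups, so for the rest the kept direction is no sign of stability. The widest ranges over the 6 fits that left out 1 library were those of Igf1 (0.80 to 1.83) and Pdgfa (0.97 to 1.60), and the range of Pdgfb was 1.03 to 1.33.

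**Figure D3:**
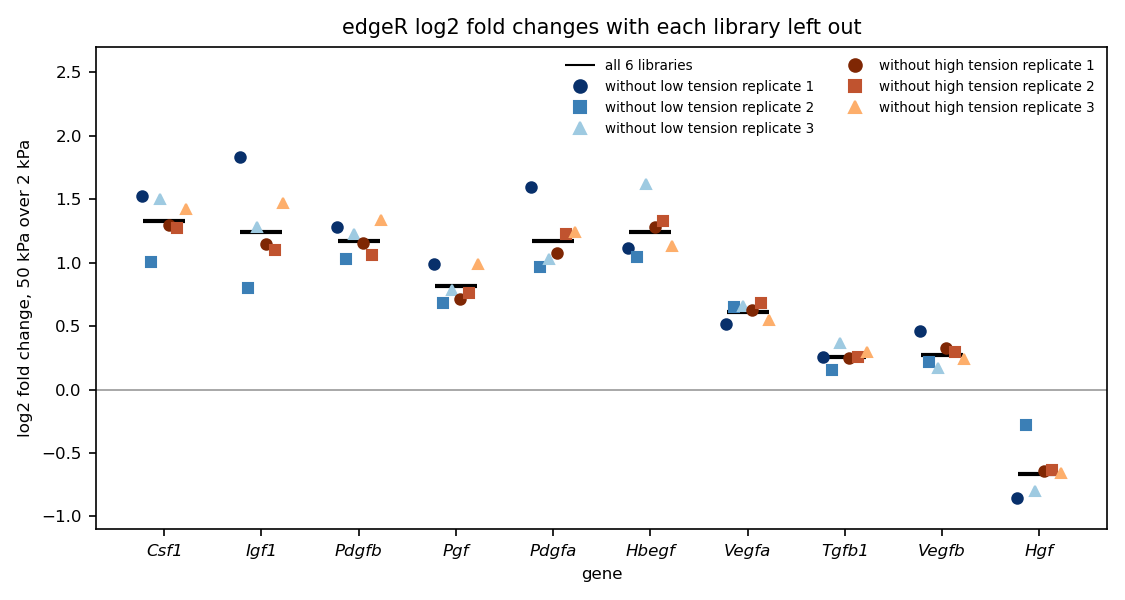
Log2 fold changes of the 10 growth factor genes from edgeR with all 6 libraries (black bars) and with each library left out in turn (points, colour and marker by the library left out). Values without low tension replicate 2 (blue squares) are the lowest of their gene for Csf1, Igf1, Pdgfb, Pgf, Pdgfa, Hbegf and Tgfb1, and nearest to 0 for Hgf.

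Levels of different genes were compared per kb of their merged exons, as mean CPM per kb. At 2 kPa the order ran from Tgfb1 (76.1 ± 10.97) and Vegfa (65.5 ± 7.68), through Csf1 (23.5 ± 9.86), Pgf (21.0 ± 4.33), Igf1 (14.8 ± 10.3) and Vegfb (9.86 ± 2.04), to Pdgfa (4.36 ± 1.92), Pdgfb (4.13 ± 0.764), Hgf (3.13 ± 1.28) and Hbegf (2.11 ± 0.854) (SD, n = 3). Neighbours in this order overlapped over their libraries except Vegfa and Csf1, and Vegfb and Pdgfa. At 50 kPa Vegfa (99.8 ± 8.42) and Tgfb1 (90.8 ± 4.33) led with overlapping ranges, followed by Csf1 (58.8 ± 7.34) clear of both neighbours. Pgf (36.9 ± 8.09) and Igf1 (35.0 ± 10.6) overlapped, as did Pdgfa (9.82 ± 1.33) and Pdgfb (9.33 ± 1.92), and Vegfb (11.9 ± 0.587) lay between these pairs. Hbegf (4.98 ± 0.672) and Hgf (1.97 ± 0.0183) came last and had changed places relative to 2 kPa, clear of each other at 50 kPa only.

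Of 15 other ligands of the same families, 10 passed the filter and 0 were called by edgeR, with 1 higher and 4 lower at an unadjusted p under 0.05 and 1 higher and 1 lower by DESeq2. The median log2 fold change of the 10 was -0.48. Over all tested genes the shares were 13% higher and 14.8% lower at that unadjusted p by edgeR, and 8.52% and 9.51% by DESeq2. Il34, the second ligand of the CSF-1 receptor, had 0 counts in all 6 libraries, which allows up to 0.072 to 0.0933 CPM at 3 counts per library, for counting error only. Nrg1, neuregulin 1 of the EGF family and named after its values were seen, was 22.6, 59.2 and 38.0 CPM at 2 kPa and 9.80, 9.08 and 27.5 CPM at 50 kPa. Its groups overlapped (-1.37 ± 0.54, edgeR adjusted p = 0.167), and the value was -2.07 without high tension replicate 3.

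None of the receptors passed the test. Of 21 receptor genes 19 were tested, with 0 called by edgeR, 4 higher and 0 lower at an unadjusted p under 0.05, and 3 higher by DESeq2, and a median log2 fold change of 0.44. Over all tested genes 13% were higher and 14.8% lower at that unadjusted p by edgeR, and DESeq2 called 8.52% higher. Csf1r was 645, 625 and 777 CPM at 2 kPa and 800, 803 and 908 CPM at 50 kPa, without overlap (0.30 ± 0.15, edgeR adjusted p = 0.239). Among VEGF receptors, Flt1 (VEGF receptor 1, which also binds placental growth factor) was 10.5, 2.11 and 17.9 CPM at 2 kPa and 23.2, 29.9 and 16.5 CPM at 50 kPa (1.196 ± 0.68, edgeR adjusted p = 0.295). Leaving out low tension replicate 2 gave 0.71, and leaving out low tension replicate 3 gave 1.88. The co-receptor gene Nrp1 was 82.4, 32.2 and 54.3 CPM at 2 kPa and 127, 134 and 91.9 CPM at 50 kPa, and its groups did not overlap (1.06 ± 0.34, edgeR adjusted p = 0.118; DESeq2 adjusted p = 0.0264). Kdr (VEGF receptor 2) and the co-receptor Nrp2 were each highest in low tension replicate 3, at 411 and 635 CPM, and their log2 fold changes of 0.26 ± 0.43 and 0.15 ± 0.42 turned negative without low tension replicate 2, at -0.06 and -0.13.

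Receptors for PDGF had 3 to 109 counts per library. Pdgfra stood at 0.243 ± 0.109 CPM on the soft and 0.427 ± 0.330 CPM on the stiff substrate, and Pdgfrb was 2.20 ± 1.18 and 0.883 ± 0.741 CPM (SD, n = 3). The EGF receptor gene Egfr, a receptor of HB-EGF, was 1.47 ± 0.0954 and 1.99 ± 0.374 CPM (0.44 ± 0.22, edgeR adjusted p = 0.249). Igf1r was 40.0 ± 14.2 and 38.5 ± 1.24 CPM (-0.05 ± 0.24, edgeR adjusted p = 0.896). Met was 89.0, 74.6 and 225 CPM at 2 kPa and 104, 101 and 100.2 CPM at 50 kPa (-0.35 ± 0.41, edgeR adjusted p = 0.597), and its log2 fold change was 0.31 without low tension replicate 3. Tgfbr1 and Tgfbr2, the signalling receptors of TGF-beta, stood at 0.47 ± 0.25 and 0.44 ± 0.21 (edgeR adjusted p = 0.261 and 0.233). Chosen after their values were seen, the co-receptor Tgfbr3 (0.70 ± 0.16) and the receptor Acvrl1 (1.36 ± 0.37) were higher without overlap and not called (edgeR adjusted p = 0.0663 and 0.0895). DESeq2 gave them adjusted p-values of 0.0029 and 0.00641.

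**Figure D4:**
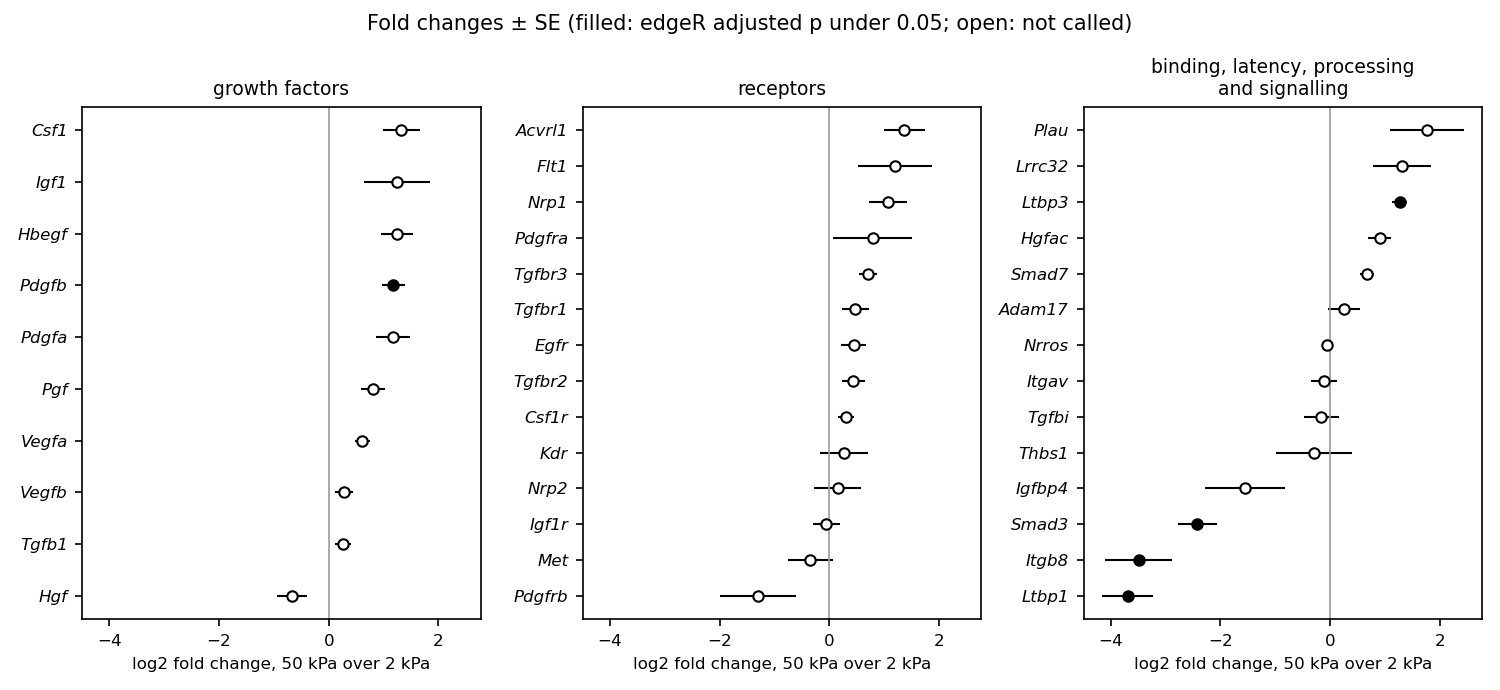
Log2 fold changes, 50 kPa over 2 kPa, with standard errors from edgeR (n = 3 per group) for the 10 growth factor genes, receptors, and genes of binding, latency, processing and signalling. Filled points passed an adjusted p under 0.05, which are Pdgfb and Ltbp3 above 0 and Smad3, Itgb8 and Ltbp1 below it.

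Of the 67 related genes tested over the 5 lists 4 were called, which is 5.97%, beside 3.45% of all genes tested, and nothing particular to these lists is read from it. Ltbp1 and Ltbp3 encode latent TGF-beta binding proteins, which tether the latent complex to matrix, and they went in opposite directions. Ltbp1 fell from 3.83, 4.77 and 4.57 CPM at 2 kPa to 0.124, 0.299 and 0.579 CPM at 50 kPa, 4, 10 and 20 counts (log2 fold change -3.69 ± 0.47, edgeR adjusted p = 0.0322). Ltbp3 rose from 4.66, 5.33 and 5.41 CPM to 11.4, 12.6 and 13.1 CPM (1.27 ± 0.13, edgeR adjusted p = 0.0286). For both genes the groups were far apart relative to the spread within them. Itgb8, the integrin chain that pairs with alpha v to free TGF-beta, fell from 0.673, 1.99 and 2.49 CPM to 0.0933, 0.149 and 0.203 CPM, 3, 5 and 7 counts (-3.49 ± 0.61, edgeR adjusted p = 0.0444). Its partner Itgav was 69.7 ± 23.9 and 64.6 ± 5.25 CPM (-0.11 ± 0.24, edgeR adjusted p = 0.777), and 0.21 without low tension replicate 3. Among other binding and latency proteins, the latent TGF-beta presenter Nrros of myeloid cells was 216 ± 13.2 and 207 ± 6.53 CPM (-0.06 ± 0.10, edgeR adjusted p = 0.711). A second presenter, Lrrc32, named after its values were seen, was 39.5, 10.6 and 46.3 CPM at 2 kPa and 86.5, 97.6 and 55.1 CPM at 50 kPa without overlap (1.31 ± 0.53, edgeR adjusted p = 0.174). Igfbp4, a binding protein of IGF-1, was 10.2, 61.6 and 17.0 CPM at 2 kPa and 8.49, 6.15 and 15.7 CPM at 50 kPa, highest in low tension replicate 2 (-1.55 ± 0.72, edgeR adjusted p = 0.219). Without that library it stood at -0.43.

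Of 14 binding and latency genes 10 were tested, 1 rose and 1 fell, with a median of -0.92. Of 18 processing proteases and inhibitors 15 were tested, 0 rose and 1 fell, with a median of -1e-04. Over all tested genes edgeR called 1.47% higher and 1.98% lower. At an unadjusted p under 0.05 by edgeR, 2 and 3 genes of the 2 lists were higher and 3 and 3 lower, beside 13% and 14.8% of all genes. DESeq2 called 1 and 3 higher and 3 and 3 lower, beside 8.52% and 9.51%. The calls of Ltbp3, Ltbp1, Itgb8 and Smad3 each ended when low tension replicate 2 or 3 or high tension replicate 1 or 2 was left out, with edgeR adjusted p-values of 0.0547 to 0.206, and when high tension replicates 1 and 2 were summed, with 0.138 to 0.187. Those of Itgb8 and Smad3 also ended without high tension replicate 3 (edgeR adjusted p = 0.0647 and 0.0558). Of the 14 other fits that tested them, Itgb8 was called in 7 and Smad3 in 8. Thbs1, which encodes thrombospondin 1, an activator of latent TGF-beta, was 1734, 5653 and 4574 CPM at 2 kPa and 1935, 1399 and 6465 CPM at 50 kPa (-0.29 ± 0.69, edgeR adjusted p = 0.804), and it was named after its values were seen, as were the next 2 genes. The plasminogen activator gene Plau was 492, 88.1 and 185 CPM at 2 kPa and 1099, 1053 and 438 CPM at 50 kPa. Its groups overlapped (1.76 ± 0.68, edgeR adjusted p = 0.159 and DESeq2 adjusted p = 0.031), and the value was 2.67 without low tension replicate 1. Hgfac, the HGF activator, was 27.5, 15.5 and 19.8 CPM and 40.6, 39.2 and 37.7 CPM without overlap (0.90 ± 0.21, edgeR adjusted p = 0.0663 and DESeq2 adjusted p = 0.00277), a direction opposite to that of Hgf.

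**Figure D5:**
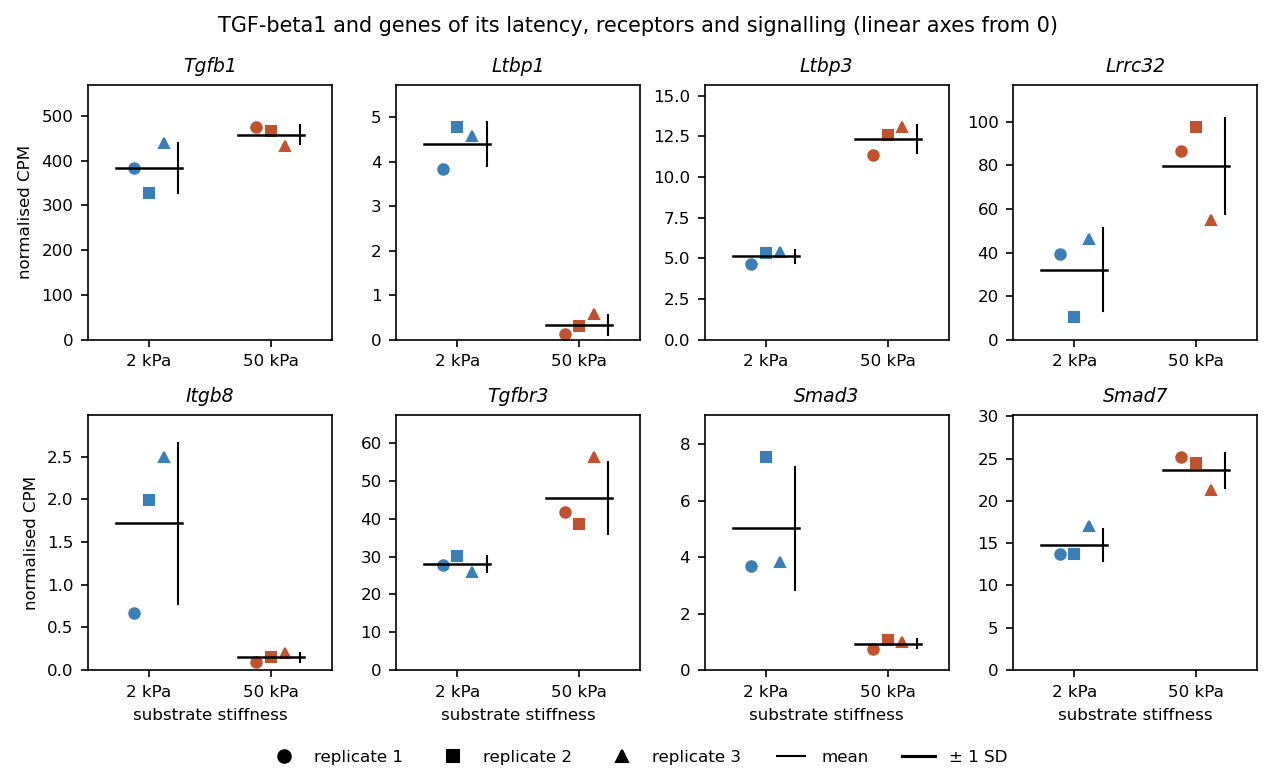
Normalised CPM of Tgfb1 and 7 genes of TGF-beta latency, reception and signalling by substrate stiffness, 1 point per library, with the group mean as a horizontal line and ± 1 SD as a vertical line (n = 3 per group, linear axes from 0). Tgfb1 groups overlap, while Ltbp1, Itgb8 and Smad3 are lower and Ltbp3, Lrrc32, Tgfbr3 and Smad7 higher in every library at 50 kPa.

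Of 13 genes of TGF-beta signalling and response, all tested, 1 fell, 0 rose and 12 were not called, with a median of -0.06. Over all tested genes edgeR called 1.98% lower and 1.47% higher. At an unadjusted p under 0.05 by edgeR, 2 of the 13 were higher and 1 lower, beside 13% and 14.8% of all genes. DESeq2 also called 2 higher and 1 lower, beside 8.52% and 9.51%. Smad3, which carries the signal to the nucleus, fell from 3.70, 7.53 and 3.81 CPM to 0.747, 1.07 and 0.984 CPM (-2.42 ± 0.36, edgeR adjusted p = 0.036). The inhibitor and target gene Smad7, named after its values were seen, was 13.7, 13.7 and 17.0 CPM at 2 kPa and 25.1, 24.4 and 21.3 CPM at 50 kPa. Its groups did not overlap, and it was just outside the threshold by edgeR (0.67 ± 0.13, edgeR adjusted p = 0.0503 and DESeq2 adjusted p = 0.00127). The target gene Tgfbi stood at 961 ± 232 CPM on the soft and 861 ± 320 CPM on the stiff substrate (-0.16 ± 0.31, edgeR adjusted p = 0.756).

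Genes with a profile like that of a growth factor gene were ranked by Pearson's r of log2 CPM over the 6 libraries among 9683 genes of at least 5 CPM. The 6 points share stiffness and library composition, predicted genes and small RNAs were left out, and the values are a description with no test. The first gene was Nipa1 for Pdgfb (0.998), Tmcc1 for Pdgfa (0.994), Gab2 for Vegfa (0.994), Fcho2 for Vegfb (0.99) and Lcorl for Pgf (0.999). It was Mfge8 for Igf1 (0.996), Pon3 for Hbegf (0.998), Rps6ka2 for Tgfb1 (0.996), Scpep1 for Csf1 (0.999) and Tardbp for Hgf (0.996). The first 3 genes of each of the 10 had r from 0.985 to 0.999. As the highest of 9683 values over 6 libraries, such r can be reached by the search alone. They also take no account of the size of a change: the log2 fold change was 0.37 for Tmcc1 and 1.17 for Pdgfa.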

How the data were processed

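Whole-number read counts per gene symbol were deposited by the authors, in 1 table per library. The submitters' processing notes name TopHat2 2.0.11, HTSeq 0.6.1p2, FastQC 0.11.2, edgeR 3.8.6 and 3.16.5, and the builds hg19 and mm10, without role or order; no source used here states the annotation or the strand setting. Titles gave low or high tension and the replicate number of each sample. In R 4.3.3, edgeR 4.0.16 (filterByExpr with minimum count 10 and total 15, TMM factors, glmQLFit and glmQLFTest on stiffness) tested 13155 genes, with Benjamini-Hochberg adjustment over all of them. The standard error is the log2 fold change divided by the square root of F. DESeq2 1.42.0, limma 3.58.1 (voom), other scalings and filters, replicate number as a block, each library left out and a pair of libraries summed were alternatives.

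The growth factor genes, related lists and markers were chosen with earlier results of these data known. Named genes were the 10 members, fixed receptors and partners, and related genes past the threshold; others are marked as chosen after their values were seen, and 1 gene of the rule is not reported here. The 91 genes used were matched by symbol to GENCODE vM21 on GRCm38 for coordinates and exon length. No label ties same-numbered replicates to 1 animal or day, and they were treated as unpaired. Python 3.11.15 with matplotlib 3.10.9 drew the plots.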

Additional observations from a re-analysis of the deposited data

How the results depend on the processing

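All 10 growth factor genes kept their direction in the 15 alternatives. Where groups did not overlap, leaving out 1 library could not have turned it at fixed scaling. The 454 genes called at 50 kPa became 39 with at least 5 CPM in 3 libraries, 2372 with DESeq2, 776 with replicate number as a block, 0 with high tension replicates 1 and 2 summed (2138 at an unadjusted p under 0.05 by edgeR), and 0 to 511 with 1 library left out (1 and 3 without low tension replicates 2 and 3, 0 without high tension replicate 1 or 2, with 2080 and 2062 at an unadjusted p under 0.05 by edgeR). The 1 growth factor gene called became 0 with at least 5 CPM in 3 libraries, 6 with DESeq2, 2 (Pdgfa and Hbegf) with the replicate block, 0 with the summed pair (6 at an unadjusted p under 0.05 by edgeR) and 0 to 1 with 1 library left out. Same-numbered libraries deviated from their group means with r = 0.54, -0.11 and 0.49 for numbers 1, 2 and 3. Libraries of different numbers were not compared in this way, so these values cannot decide whether the numbers pair the samples. Total counts as the scaling moved the median of all genes from -0.028 to -0.162 and the calls from 194 higher and 260 lower to 77 and 257. Among the related genes, leaving out 1 library turned directions within ranges of -0.062 to 0.85 for Kdr and -0.13 to 0.81 for Nrp2 (negative without low tension replicate 2, and for Nrp2 also -0.06 without low tension replicate 1), -0.25 to 0.26 for Igf1r (positive without low tension replicate 2), -0.63 to 0.31 for Met and -0.26 to 0.21 for Itgav (positive without low tension replicate 3), and -1.25 to 0.093 for Thbs1 and -0.50 to 0.0095 for Tgfbi (positive without high tension replicate 2, and for Thbs1 also 0.049 without low tension replicate 2). With the summed pair Thbs1 stood at 0.045 and Tgfbi at 0.0047, and with the replicate block Igf1r at 0.0019; the causes were not tested. Genes with few counts, such as Itgb8 and Ltbp1 at 50 kPa, are limited by depth.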
